A study of Mus musculus with 8 samples.

Results

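The thioredoxin system and the peroxiredoxins were examined in Cebpg-/- and WT embryonic fibroblasts of the mouse (MEFs), cells of connective tissue cultured from embryos. The set holds 10 genes: thioredoxin (Txn1), its reductase (Txnrd1), its inhibitor (Txnip), sulfiredoxin (Srxn1) and the peroxiredoxins Prdx1 to Prdx6. Members were all probe sets, groups of short oligonucleotides on an Affymetrix array, whose platform annotation names 1 of these genes alone. That rule gave 18 of 45037 probe sets, for 7 of the 10 genes. Txnrd1 had 3 of them, Txnip 2, Txn1 2, Srxn1 4, Prdx2 2, Prdx3 1 and Prdx4 4. Prdx1, Prdx5 and Prdx6 were not analysed here, because no probe set names any of them alone in the annotation used.

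The Cebpg-/- group, 4 samples, lacks both copies of Cebpg, and the WT group, also 4 samples, carries both. C/EBPγ, its product, is a basic leucine zipper transcription factor that pairs with related factors such as ATF4 to bind DNA. Both groups are C57BL/6 cells from E13.5 embryos, cultured with 10% fetal bovine serum and harvested at passage 3, 48 hours after plating. The labels call the samples biological replicates and do not say whether each came from its own embryo, so p-values measure only the spread between these samples.

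Thioredoxin is a small protein that reduces disulfide bonds in other proteins and is itself reduced by thioredoxin reductase, a selenoprotein that draws on NADPH. Peroxiredoxins break down hydrogen peroxide with a reactive cysteine, and thioredoxin returns most of them to the active form. Where peroxide oxidises that cysteine too far, sulfiredoxin repairs it, while Txnip binds reduced thioredoxin and blocks it. Several of these genes are known targets of NRF2, the factor that drives antioxidant genes in fibroblasts and other cells.

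Expression is given as log2 RMA values, so a difference of 1 is a change of 2-fold. They ranged from 0.53 to 13.10, with array medians between 2.70 and 2.76. A probe set is called changed where limma's adjusted p, over all 45037 probe sets, is under 0.05. Of the probe sets that name Cebpg, 1 was called lower, at 5.53 ± 0.12 in Cebpg-/- and 6.32 ± 0.07 in WT (SD, n = 4 each; limma, adjusted p = 0.000593). Another 2 were not called (limma, adjusted p = 0.275 and 0.0942). The brightest (1425262_at) averaged 6.60 ± 0.11 in Cebpg-/- and 6.78 ± 0.16 in WT. The dimmest (1425261_at) went the other way, at 3.05 ± 0.10 and 2.80 ± 0.14 in the same order, with every Cebpg-/- value above every WT value. The sources used here do not say which of the 3 read the deleted sequence. Among the fibroblast genes, Vim (vimentin) averaged 12.46 in Cebpg-/- and 12.44 in WT. Col1a2 averaged 12.25 and 12.69 in the same order and was called lower (limma, adjusted p = 0.00718). Changes of the 12 fibroblast markers ran from -1.05 in Col1a1, called lower, to 1.07 in Lum, not called. All 5 measured markers of red blood cells lay below the median probe set on every array.

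Markers of leukocytes differed between cultures and are given here because they accompany several results below. All 18 measured leukocyte markers had a higher mean in Cebpg-/- than in WT, and 1 was called. Over all 18193 genes by brightest probe set, 9044 had a higher mean in Cebpg-/-, and 7.11% were called higher and 3.24% lower. The mean of the leukocyte markers was 7.28, 4.64, 6.54 and 6.13 on Cebpg-/- replicates 1 to 4, against 3.44, 5.11, 5.06 and 5.26 on WT replicates 1 to 4. Their summed linear level ran from 1063 to 6486 in Cebpg-/- and from 318.4 to 1554 in WT, and none of the 18 lay below the median probe set on all arrays. Ptprc (CD45), which defines leukocytes, averaged 4.70 ± 1.27 in Cebpg-/- and 3.34 ± 1.09 in WT (SD, n = 4 each). Cebpg-/- replicate 2 thus had a lower leukocyte level than WT replicates 2, 3 and 4. Of 12 fibroblast markers 5 were called lower and none higher (limma), beside 3.24% and 7.11% of all genes. The mean of the 12 was 9.29 ± 0.14 in Cebpg-/- and 9.59 ± 0.12 in WT (SD, n = 4 each). In a bulk culture, fewer cells of a type and less RNA per cell cannot be told apart.

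Of the 18 probe sets, 8 were called higher and 2 lower in Cebpg-/-, and 8 did not pass (limma). Over all probe sets, 4.82% were called higher and 2.78% lower. In 11 of the 18 all 4 Cebpg-/- values lay above all 4 WT values, a pattern shown by 8.71% of all probe sets, and in 3 they lay below, a pattern shown by 6.31%. The median change of the 18 was 0.32, beside -0.02 over all probe sets. Leaving out Cebpg-/- replicate 1 or WT replicate 1 gave 5 higher calls each, and leaving out both gave 4 higher and 0 lower, as did the mean of the leukocyte markers entered as a term of the fit. The lower calls were 0 without Cebpg-/- replicate 1 or 3, and 1 without Cebpg-/- replicate 4 or WT replicate 1, 2 or 4. Scaling moved the overall split of calls more than that of the members. The share of higher calls among all called probe sets was 63.4% for the values as deposited, 53.4% with quantile normalization and 75.5% with array medians subtracted, and the members gave 8 higher calls under all 3 scalings.

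**Figure D1:**
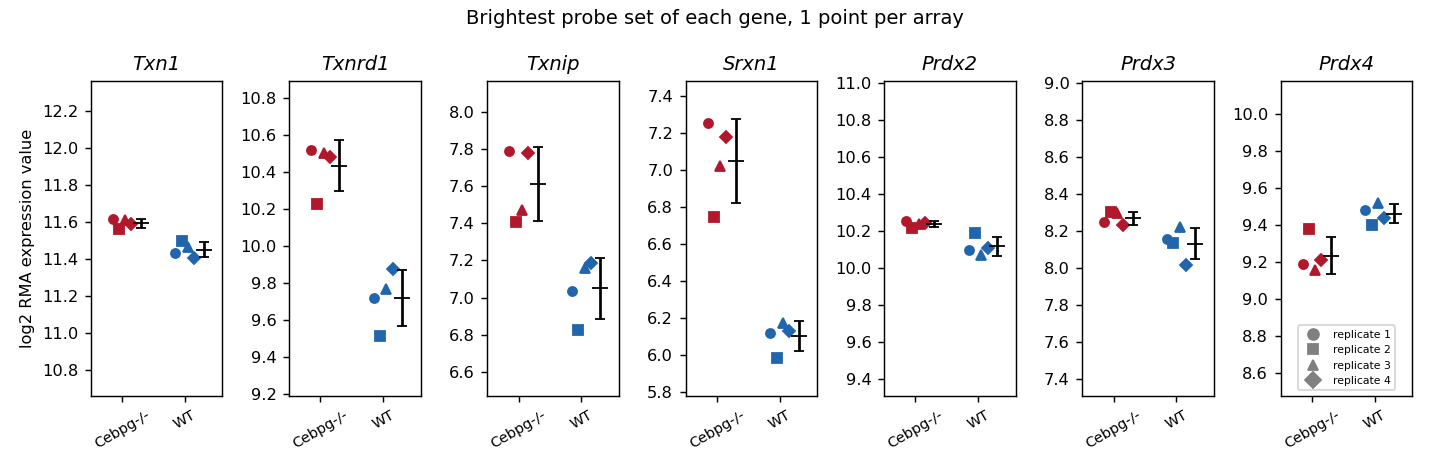
Log2 RMA values of the brightest probe set of each of 7 genes (vertical axis), 1 point per array, Cebpg-/- left and WT right. The bar beside each group is the mean with its SD (n = 4), and every panel spans the same height. Srxn1, Txnrd1 and Txnip stand clear of WT in all 4 Cebpg-/- samples, while Txn1, Prdx2 and Prdx3 differ by less than 0.2 and the Prdx4 values lie below those of WT, and none of these 4 changes passed the test.

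Txnrd1, on chromosome 10, encodes the cytosolic thioredoxin reductase that keeps thioredoxin reduced. Its brightest probe set (1421529_a_at) read 10.52, 10.23, 10.51 and 10.48 on Cebpg-/- replicates 1 to 4, against 9.72, 9.51, 9.77 and 9.88 on WT replicates 1 to 4. The groups did not overlap, and the lowest sample of each was its replicate 2. The level was 1.64-fold that of WT, with a 95% interval of 1.42 to 1.89 (change 0.71 ± 0.09, SE; limma, adjusted p = 0.00256). Among the 17 alternative fits of this probe set the change ran from 0.60 to 0.78, and all 17 called it, with adjusted p up to 0.0435. Both the lowest change and that adjusted p came with the leukocyte mean as a covariate (limma). After each genotype's mean was taken off, Pearson's r with the leukocyte mean was 0.52. The part of the leukocyte level in this rise was not tested further.

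The other Txnrd1 probe sets are much dimmer. The first (1424486_a_at) read 4.34, 4.41, 4.51 and 4.35 in Cebpg-/- and 3.92, 3.44, 3.85 and 4.95 in WT. The second (1424487_x_at), whose suffix marks probes that can bind other transcripts, read 2.95, 3.06, 2.80 and 2.99 in Cebpg-/- and 2.62, 2.51, 2.52 and 3.04 in WT. WT replicate 4 was the highest of all 8 arrays in the first and overlapped the Cebpg-/- range in the second. Their changes were 0.36 and 0.28, neither called (limma, adjusted p of 0.428 and 0.181). Without WT replicate 4 they were 0.67 and 0.40 and both were called (limma, adjusted p = 0.00987 and 0.0145). Of the 17 alternative fits this was the only one that called either, and the adjusted p of limma ran up to 0.787 and 0.477. Taking the mean of the 3 probe sets as the gene's value gave 0.45, which did not pass (limma, adjusted p = 0.0696 over genes).

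The RefSeq promoter table of build GRCm38.p6 gives Txnrd1 3 start sites. For each, the window runs from 250 bases before the start to 50 after it. The window of the second start, chr10:82858956-82859255 on the plus strand, is shown because it alone of the 3 holds a match to TGACNNNGC, the core of the antioxidant response element bound by NRF2. The match, in capitals, reads on the opposite strand and begins 92 bases before the start. Such a match occurs on either strand in 12.4% of the 32851 promoters of the table.
Txnrd1: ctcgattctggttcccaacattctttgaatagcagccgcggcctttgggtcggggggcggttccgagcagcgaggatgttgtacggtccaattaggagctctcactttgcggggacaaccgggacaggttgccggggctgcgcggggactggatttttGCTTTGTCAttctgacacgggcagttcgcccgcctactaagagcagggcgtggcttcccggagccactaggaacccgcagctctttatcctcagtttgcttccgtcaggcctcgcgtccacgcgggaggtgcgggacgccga

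Txn1, on chromosome 4, encodes the cytosolic thioredoxin that Txnrd1 reduces. It was among the brightest probe sets of the arrays and changed little. The bright probe set (1416119_at) read 11.62, 11.56, 11.61 and 11.59 on Cebpg-/- replicates 1 to 4, against 11.43, 11.50, 11.46 and 11.40 on WT replicates 1 to 4. All Cebpg-/- values lay above all WT values, by a gap of 0.06. The change of 0.14, a level 1.11-fold that of WT with a 95% interval of 1.02 to 1.20, did not pass (limma, adjusted p = 0.121). With a robust fit that lets the variance follow intensity it passed (limma, adjusted p = 0.025). The dim probe set (1456734_at) averaged 4.08 ± 0.14 in Cebpg-/- and 4.12 ± 0.36 in WT (SD, n = 4 each; limma, adjusted p = 0.906), and the sign of its change of -0.04 turned in 4 of 17 alternative fits. No match to the motifs searched was found in the Txn1 promoter window.

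Txnip, on chromosome 3, encodes the thioredoxin-interacting protein, an arrestin-like inhibitor of thioredoxin that also restrains glucose uptake. Both of its probe sets were higher in Cebpg-/-. The brighter (1415996_at) read 7.79, 7.41, 7.47 and 7.78 in Cebpg-/- and 7.03, 6.82, 7.16 and 7.19 in WT. The dimmer (1415997_at) read 6.21, 5.87, 5.96 and 5.98 in Cebpg-/- and 5.26, 5.23, 5.50 and 5.85 in WT. The groups were apart by 0.22 in the brighter and by 0.02 in the dimmer, where WT replicate 4 came close to Cebpg-/- replicate 2. The changes were 0.56 ± 0.11 and 0.55 ± 0.13 (SE), 1.48-fold and 1.46-fold (limma, adjusted p = 0.0163 and 0.0362).

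Several alternatives ended the Txnip calls. The brighter probe set did not pass without Cebpg-/- replicate 1 (adjusted p = 0.0529), without WT replicate 1 (0.053), or with the leukocyte mean as a covariate (change 0.44, adjusted p = 0.201). The dimmer passed in 2 of the 8 limma fits that leave out 1 array, and with the leukocyte covariate its change was 0.35 (limma, adjusted p = 0.368). On Cebpg-/- replicate 2, where the leukocyte mean was 4.64, the brighter probe set was 0.22 above the highest WT value. In both Txnip probe sets that array was the lowest of its group, and replicate 1, the highest in leukocyte markers, was the highest. After each genotype's mean was taken off, Pearson's r with the leukocyte mean was 0.45 for the brighter and 0.60 for the dimmer. The part of the leukocyte level in these rises was not tested further.

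The Txnip promoter, chr3:96557707-96558006 on the plus strand, is shown because it holds the paired CACGAG letters known as a carbohydrate response element, through which MondoA and Mlx drive this gene. Capitals mark the match to CACGAG followed after any 5 bases by another CACGAG, which begins 85 bases before the start. The letters were chosen for search after the sequence was seen, and 1 promoter of 32851, this one, holds them. It held no TGACNNNGC, no CACGTG (the E-box, present in 7.15% of promoters) and no TGATGNAAT, the core of an element bound by C/EBP and ATF dimers (0.965%). Of the 11 promoter windows of the member genes none held TGATGNAAT, and that of Prdx4 alone held CACGTG.
Txnip: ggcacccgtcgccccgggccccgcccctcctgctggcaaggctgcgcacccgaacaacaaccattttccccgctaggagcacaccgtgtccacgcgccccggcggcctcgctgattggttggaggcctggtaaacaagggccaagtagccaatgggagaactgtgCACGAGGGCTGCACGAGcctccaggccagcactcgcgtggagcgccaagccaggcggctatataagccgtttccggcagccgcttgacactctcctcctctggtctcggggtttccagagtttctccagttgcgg

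Srxn1, on chromosome 2, encodes sulfiredoxin, which restores peroxiredoxins after overoxidation. It had the largest changes of the 18 probe sets. Its brightest probe set (1426875_s_at), with a suffix for probes that may match several transcripts, read 7.25, 6.74, 7.02 and 7.18 on Cebpg-/- replicates 1 to 4, against 6.12, 5.99, 6.17 and 6.13 on WT replicates 1 to 4. The gap between the groups was 0.57, and Cebpg-/- replicate 2 was the lowest of its group. The level was 1.93-fold that of WT, with a 95% interval of 1.64 to 2.26 (change 0.95 ± 0.10, SE; limma, adjusted p = 0.00121).

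Another pair of Srxn1 probe sets gave like changes. The first (1451680_at) read 7.26, 6.80, 6.998 and 6.99 in Cebpg-/- and 6.05, 5.76, 6.09 and 6.10 in WT, a change of 1.01 ± 0.11 (SE; limma, adjusted p = 0.00105). The second (1425351_at) read 5.53, 5.16, 5.16 and 5.28 in Cebpg-/- and 4.51, 4.17, 4.42 and 4.59 in WT, a change of 0.86 ± 0.11 (SE; limma, adjusted p = 0.00222). In both, every Cebpg-/- value lay above every WT value, by 0.71 and 0.57. All 3 were called in all 17 alternative fits, with adjusted p up to 0.0387. On Cebpg-/- replicate 2, the one with the low leukocyte level, the 3 probe sets exceeded the highest WT value by 0.57 to 0.71. In all 3 that array was also the lowest of its group, and replicate 1, the highest in leukocyte markers, was the highest. After each genotype's mean was taken off, their r with the leukocyte mean was 0.65, 0.49 and 0.29. The part of the leukocyte level in these rises was not tested further. With the leukocyte covariate the changes were 0.79, 0.89 and 0.79 (adjusted p = 0.018, 0.0175 and 0.0387).

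The fourth Srxn1 probe set (1419942_at) gave another reading. It averaged 4.78 ± 0.16 in Cebpg-/- and 4.58 ± 0.16 in WT (SD, n = 4 each), the groups overlapped, and the change of 0.20 did not pass (limma, adjusted p = 0.269). Set against the brightest on the same arrays, its change was smaller by 0.75 (exact permutation test over samples, p = 0.0286, the smallest this design can give; adjusted p = 0.105 over the 11 such comparisons within genes).

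The Srxn1 promoter, chr2:152105274-152105573 on the plus strand, is shown beside that of Txnrd1 because both genes rose. Capitals mark 3 matches. GCTAGGTCA, 28 bases after the start, holds TGACNNNGC on the opposite strand. The form TGAGNNNGC was searched after the sequence was seen and is present in 17.6% of promoters. It is matched by TGAGTCAGC at 45 bases before the start and by GCCGACTCA, on the opposite strand, at 158 bases before it. The window of Prdx1, a gene not analysed here, also held 1 match to each of these forms. Whether such matches go with the rises was not tested.
Srxn1: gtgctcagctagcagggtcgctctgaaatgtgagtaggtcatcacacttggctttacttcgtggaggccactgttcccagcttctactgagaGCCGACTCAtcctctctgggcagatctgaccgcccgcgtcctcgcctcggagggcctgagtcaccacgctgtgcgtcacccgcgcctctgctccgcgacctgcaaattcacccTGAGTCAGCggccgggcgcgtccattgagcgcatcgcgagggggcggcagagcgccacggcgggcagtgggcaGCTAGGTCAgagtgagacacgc

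**Figure D2:**
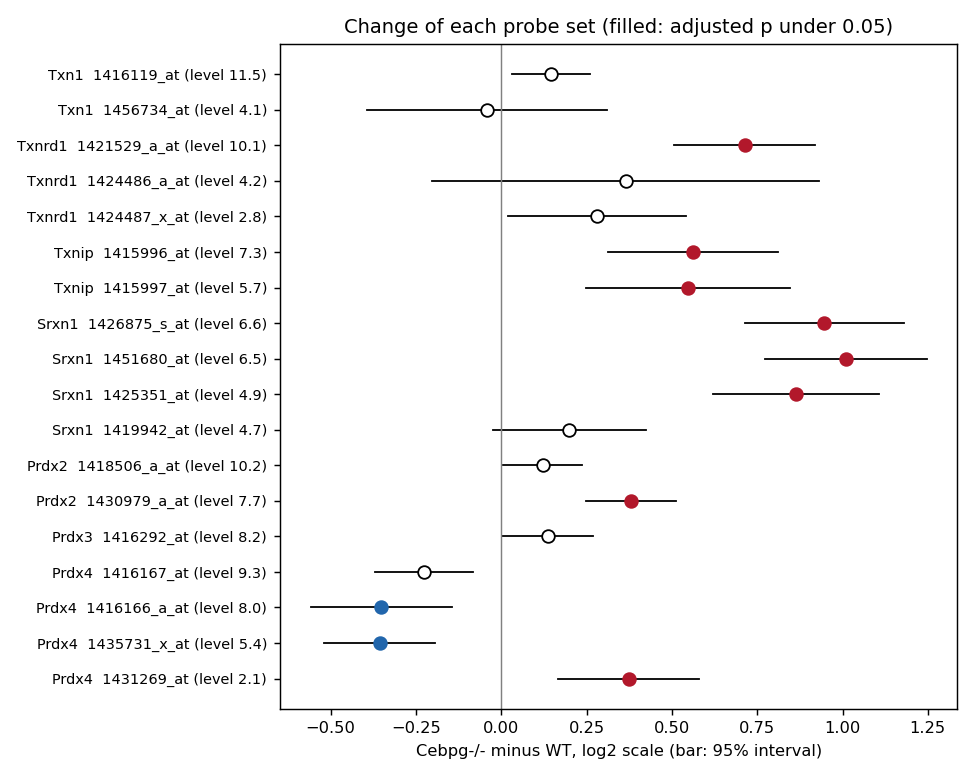
Change of each of 18 probe sets, Cebpg-/- minus WT on the log2 scale (horizontal axis), with its 95% interval from the limma fit. Filled points passed an adjusted p of 0.05, red where higher and blue where lower, and the level beside each name is its mean over 8 arrays. Within Txnrd1, Srxn1, Prdx2 and Prdx4 some probe sets of the same gene were called and others not.

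The changes of the peroxiredoxin probe sets ran from -0.36 to 0.38, with calls in both directions. Prdx2, on chromosome 8, encodes an abundant cytosolic peroxiredoxin. Its brighter probe set (1418506_a_at) read 10.25, 10.21, 10.24 and 10.25 in Cebpg-/- and 10.10, 10.19, 10.07 and 10.11 in WT. The change of 0.12 did not pass (limma, adjusted p = 0.197), although the groups were apart by 0.02. Its dimmer probe set (1430979_a_at) read 8.01, 7.82, 7.89 and 7.90 in Cebpg-/- and 7.53, 7.58, 7.49 and 7.49 in WT. This one rose by 0.38 ± 0.06 (SE), 1.30-fold, with the groups apart by 0.24 (limma, adjusted p = 0.00541). It did not pass with the leukocyte covariate (0.33, adjusted p = 0.093) or without both Cebpg-/- replicate 1 and WT replicate 1 (0.35, adjusted p = 0.0613). The changes of the pair differed by 0.26 (exact permutation test, p = 0.0286; adjusted p = 0.105).

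Prdx3, on chromosome 19, encodes the peroxiredoxin of mitochondria. Its only probe set (1416292_at) read 8.25, 8.30, 8.30 and 8.23 in Cebpg-/- and 8.16, 8.14, 8.22 and 8.02 in WT. The groups were apart by 0.01, and the change of 0.14 did not pass (limma, adjusted p = 0.205). Txn2 and Txnrd2, which encode the thioredoxin and reductase of the same compartment, also did not pass. Txn2 averaged 7.92 ± 0.05 in Cebpg-/- and 7.93 ± 0.04 in WT, and Txnrd2 4.96 ± 0.22 and 4.86 ± 0.11 in the same order (SD, n = 4 each; limma, adjusted p = 0.926 and 0.62). The sign of the Txn2 change turned in some alternatives.

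Prdx4, on the X chromosome, encodes the peroxiredoxin of the endoplasmic reticulum, where peroxide arises as proteins form disulfides. Of its 4 probe sets 2 were called lower, 1 higher and 1 not called. The brightest (1416167_at) read 9.19, 9.38, 9.16 and 9.21 on Cebpg-/- replicates 1 to 4, against 9.48, 9.40, 9.52 and 9.44 on WT replicates 1 to 4. All Cebpg-/- values lay below all WT values, by 0.02, and the change of -0.23 just missed the threshold (limma, adjusted p = 0.0623). Adjusted over the 18193 genes in place of all probe sets, an alternative chosen after seeing the data, it passed (adjusted p = 0.0462).

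The middle pair of Prdx4 probe sets was lower. The first (1416166_a_at) read 7.70, 7.85, 7.89 and 7.72 in Cebpg-/- and 8.35, 8.15, 7.91 and 8.17 in WT, a change of -0.35 (limma, adjusted p = 0.0489). The second (1435731_x_at) has the suffix for probes that can bind other transcripts. It read 5.18, 5.32, 5.28 and 5.29 in Cebpg-/- and 5.80, 5.59, 5.60 and 5.50 in WT, a change of -0.36 (limma, adjusted p = 0.0187). WT replicate 3 came within 0.01 of the Cebpg-/- range in the first, and the groups were apart by 0.18 in the second. Only 1 of the 8 fits without 1 array kept the call of the first, the one without WT replicate 3, and 6 kept that of the second, which was lost without Cebpg-/- replicate 1 (adjusted p = 0.0616) or 3 (0.0501).

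Neither Prdx4 call was kept with the leukocyte covariate (changes -0.23 and -0.24, adjusted p = 0.423 and 0.234). On Cebpg-/- replicate 2, with its low leukocyte level, the first read 7.85 and the second 5.32, against lowest WT values of 7.91 and 5.50. After each genotype's mean was taken off, r with the leukocyte mean was -0.56 for the first and -0.82 for the second. The part of the leukocyte level in these falls was not tested further. As Prdx4 is X-linked, the levels of Y-linked genes were set beside it. The mean of 3 Y-linked genes was 1.43, 1.44, 5.64 and 5.62 on Cebpg-/- replicates 1 to 4, against 4.82, 1.52, 5.47 and 5.76 on WT replicates 1 to 4, so both groups hold arrays with and without Y-linked signal. With that mean as a covariate the change was -0.35 in both, and the first did not pass while the second did (limma, adjusted p = 0.0783 and 0.0355).

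The dimmest Prdx4 probe set (1431269_at) went the other way. It read 2.52, 2.14, 2.37 and 2.17 in Cebpg-/- and 2.03, 1.82, 1.85 and 2.00 in WT, a change of 0.37 (limma, adjusted p = 0.0395). All 8 values were under that of the median probe set, and the call was kept in 2 of the 8 fits without 1 array. It was lost with the leukocyte covariate (0.29, adjusted p = 0.347) and with the Y-linked covariate (0.38, adjusted p = 0.063). Its change differed from that of the brightest by 0.60 (exact permutation test, p = 0.0286; adjusted p = 0.105).

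With the brightest probe set standing for each gene, 3 of 7 genes were called higher (Srxn1, Txnrd1 and Txnip) and 0 lower (limma), with 6 higher and 1 lower at an unadjusted p under 0.05. Over all 18193 genes 7.11% were called higher and 3.24% lower, and at an unadjusted p under 0.05 17.5% were higher and 10.9% lower. No gene of the 7 had overlapping groups: 6 lay above and Prdx4 below, patterns shown by 12.8% and 6.74% of all genes. Without Cebpg-/- replicate 1 or WT replicate 1 the higher calls were 2, Srxn1 and Txnrd1, and without Cebpg-/- replicate 2 Prdx4 was called lower (limma, adjusted p = 0.025). Averaging the probe sets of each gene also gave 3 higher calls, Srxn1, Txnip and Prdx2. Prdx2 was then called, at 0.25 against 0.12 by its brightest (limma, adjusted p = 0.0111), and Txnrd1 was not.

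**Figure D3:**
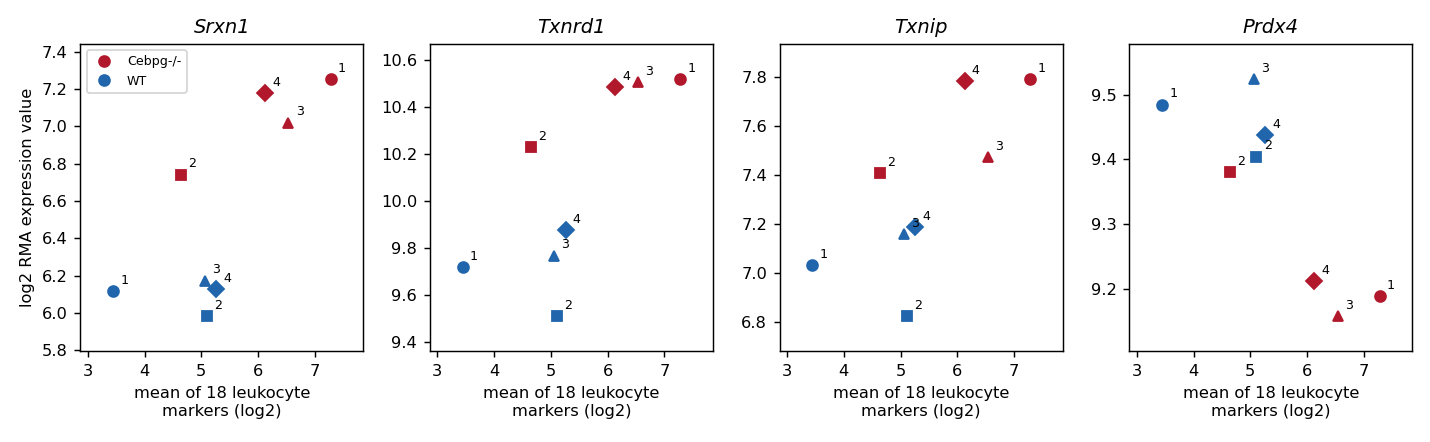
Log2 value of the brightest probe set of Srxn1, Txnrd1, Txnip and Prdx4 (vertical axis) against the mean of 18 leukocyte markers (horizontal axis, log2), 1 point per array, labelled by replicate. Cebpg-/- replicate 2, at a leukocyte mean of 4.64, lies above every WT value for Srxn1, Txnrd1 and Txnip and 0.02 below the lowest WT value for Prdx4. It is also the lowest of its group for Srxn1, Txnrd1 and Txnip and the highest for Prdx4. After each genotype's mean was taken off, r with the leukocyte mean was 0.65 for Srxn1, 0.52 for Txnrd1, 0.45 for Txnip and -0.73 for Prdx4.

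Other genes of thiol redox were taken from 4 lists, of 52 measured genes. The lists were chosen with earlier results of these data known, so their shares are a description and no independent test. By their brightest probe sets 5 were called higher and 1 lower (limma), or 9.62% and 1.92%, beside 7.11% and 3.24% of all genes. At an unadjusted p under 0.05, 22 were higher and 5 lower, or 42.3% and 9.62%, beside 17.5% and 10.9% of all genes. The counts given below for each list stand beside these same shares of all genes. The median change of the 52 was 0.12, against -0.00092 over all genes. The count of higher genes at the adjusted threshold is near the background, and it fell to 1 with the leukocyte covariate and to 3 without WT replicate 1. Without Cebpg-/- replicate 2 it was 8.

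The first list held 22 genes: proteins of the thioredoxin and glutaredoxin families, and the reductases Txnrd2 and Txnrd3. Of these 2 were called higher and 0 lower (limma), with 10 higher and 2 lower at an unadjusted p under 0.05. Glrx, glutaredoxin, reduces protein disulfides that hold glutathione. It read 7.03, 6.66, 7.26 and 6.82 in Cebpg-/- and 5.24, 5.72, 5.43 and 5.51 in WT, a 2.77-fold level (change 1.47 ± 0.14, SE; limma, adjusted p = 0.000567). It exceeded the change of every one of the 18 thioredoxin and peroxiredoxin probe sets, and it was called in all alternatives run, between 1.21 and 1.56. Tmx2, a transmembrane protein of the thioredoxin family, averaged 7.34 ± 0.13 in Cebpg-/- and 6.97 ± 0.06 in WT (SD, n = 4 each; limma, adjusted p = 0.0149). Tmx2 did not pass when WT replicate 1 was left out (adjusted p = 0.0519) or with the leukocyte covariate, where its change was 0.25 (0.188). Txnrd3, a reductase best known from testis, averaged 4.92 ± 0.07 and 4.74 ± 0.11 in the same order and did not pass (limma, adjusted p = 0.156). Among the rest, Glrx2 and Glrx5, mitochondrial glutaredoxins, had changes of 0.15 and 0.21 that did not pass.

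The second list held 16 genes: proteins that thioredoxin serves, proteins that oxidise thiols, and sestrins. None was called higher and P4hb was called lower (limma), with 8 higher and 2 lower at an unadjusted p under 0.05. P4hb is protein disulfide isomerase of the endoplasmic reticulum, the compartment of Prdx4. It read 10.77, 10.88, 10.72 and 10.94 in Cebpg-/- and 11.11, 11.09, 11.22 and 11.14 in WT, a change of -0.32 (limma, adjusted p = 0.0191). This call was lost without Cebpg-/- replicate 1 (adjusted p = 0.0638) or 3 (0.0586), WT replicate 1 (0.0512) or 3 (0.0556), and with the leukocyte covariate (0.201). Sesn2, a sestrin that responds to stress, averaged 5.99 ± 0.10 in Cebpg-/- and 5.84 ± 0.07 in WT (SD, n = 4 each; limma, adjusted p = 0.202). Taking the mean of its probe sets gave a change of the other sign.

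The relatives of Txnip gave 2 higher calls among 7 genes of relatives and regulators, and 0 lower (limma), with 3 higher and 0 lower at an unadjusted p under 0.05. Arrdc4, an arrestin-domain protein that like Txnip responds to glucose through MondoA, read 5.31, 4.92, 4.96 and 5.38 in Cebpg-/- and 4.57, 4.47, 4.67 and 4.72 in WT. Its order over the 4 Cebpg-/- samples put replicates 1 and 4 above 2 and 3, as in Txnip. The brightest probe set of Srxn1, which is no relative of Txnip, had replicates 1 and 4 above 2 and 3 too. The change was 0.54 ± 0.11 (SE; limma, adjusted p = 0.0196), and it was lost without Cebpg-/- replicate 1 (adjusted p = 0.0627) or 4 (0.0504), WT replicate 1 (0.0632), or with the leukocyte covariate (0.234). Arrdc3 rose by 0.85 ± 0.13 (SE; limma, adjusted p = 0.00478), averaging 4.71 ± 0.19 in Cebpg-/- and 3.85 ± 0.24 in WT (SD, n = 4 each), and did not pass with the leukocyte covariate (0.75, adjusted p = 0.0749). Mlx, the partner of MondoA, had a change of 0.27 at the edge of the threshold (limma, adjusted p = 0.0503), and Mlxip, which encodes MondoA, one of -0.02 (0.864).

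Txnrd1 carries selenocysteine, so genes of selenoprotein synthesis were included. Of 7, only Sephs2, which makes the selenium donor, was called higher, and 0 lower (limma), with 1 higher and 1 lower at an unadjusted p under 0.05. Sephs2 read 7.33, 7.46, 7.48 and 7.30 in Cebpg-/- and 6.91, 6.94, 7.01 and 7.05 in WT, with the groups apart and a change of 0.41 ± 0.06 (SE; limma, adjusted p = 0.00561). With the leukocyte covariate the change was 0.42 and did not pass (adjusted p = 0.0685). Nfe2l2, which encodes NRF2, was also higher by its brightest probe set, at 8.16 ± 0.02 in Cebpg-/- and 7.92 ± 0.07 in WT (SD, n = 4 each; limma, adjusted p = 0.0295). Its other, dim probe set had a change of -0.03 that did not pass (adjusted p = 0.85). Results of the alternative fits are not given here for Nfe2l2.

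**Figure D4:**
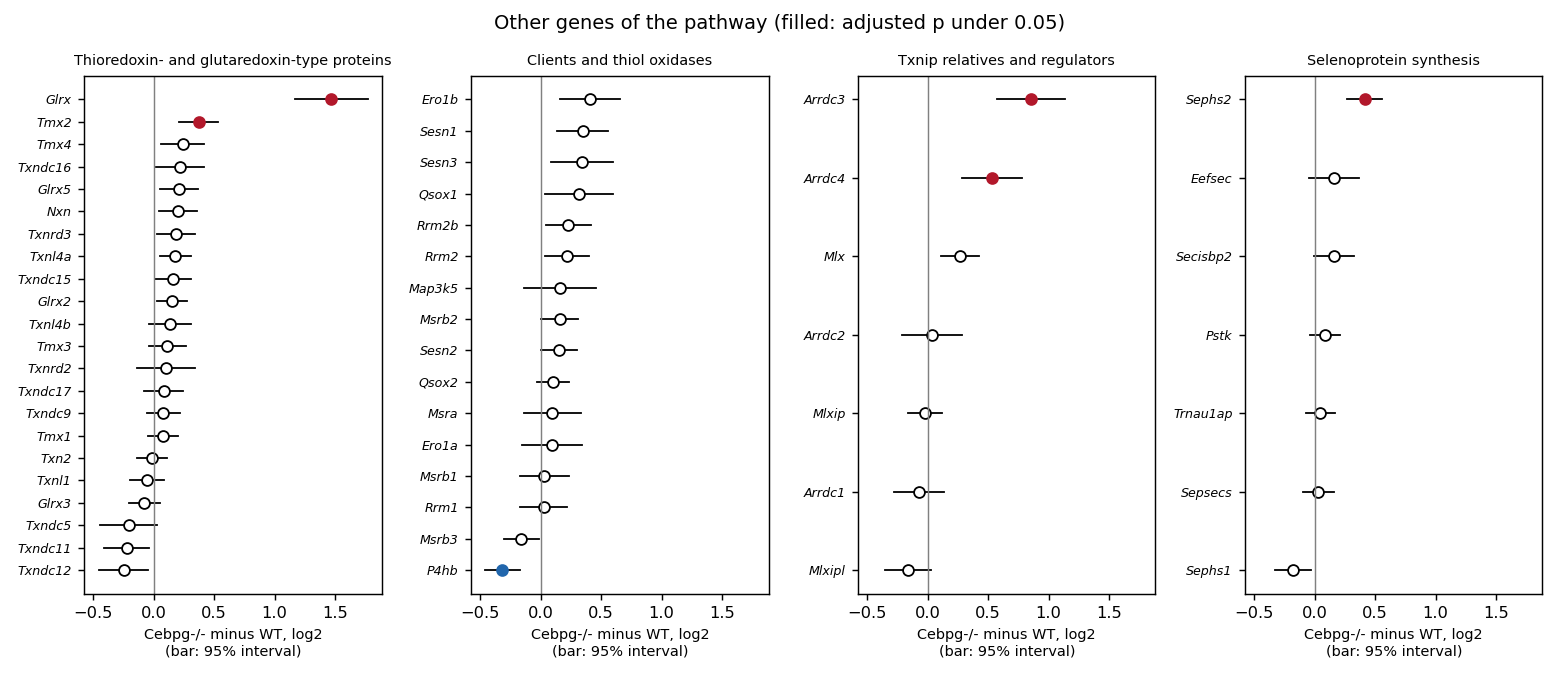
Change of 52 other genes of thiol redox in 4 lists, Cebpg-/- minus WT on the log2 scale (horizontal axis), with 95% intervals from the limma fit and the brightest probe set per gene. Filled points passed an adjusted p of 0.05, red where higher and blue where lower. Glrx stands out at 1.47, and P4hb is the only gene called lower.

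The genes whose values over the 8 arrays most resembled Txnrd1, Srxn1 and Txnip were listed by Pearson's r between brightest probe sets, a description over arrays that share the genotype difference. For Txnrd1 they were Gnb4 (a G protein subunit; r = 0.992), Tor4a (0.988) and Psmd11 (a proteasome subunit; 0.987). For Srxn1 they were Egln3 (a prolyl hydroxylase of HIF; r = 0.993), Tbc1d2 (0.993) and AW209491 (0.991). For Txnip they were Angptl4 (a secreted inhibitor of lipoprotein lipase; r = 0.997), Sgpl1 (sphingosine phosphate lyase; 0.994) and Meak7 (0.992). After each genotype's mean was taken off, r was 0.969 for Gnb4, 0.934 for Egln3 and 0.99 for Angptl4, each with its member over 8 arrays. These genes were picked for the highest r on the same 8 arrays, so this r is no separate test of likeness. Angptl4 averaged 7.38 in Cebpg-/- and 6.06 in WT, and Egln3 5.58 and 3.45 in the same order.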

How the data were processed

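Total RNA of 8 MEF samples, 4 Cebpg-/- and 4 WT by their titles, was hybridised to 1 array each, with cRNA made from 1 µg of RNA. Per the submitters' processing notes the authors computed the deposited log2 values by RMA, and the sources used here give neither version nor settings for it. This method usually corrects background and quantile-normalizes probes, which compresses changes of dim probe sets. No scanner files were used, so background calls were not made, and the number of arrays limits the precision.

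Of 45101 probe sets 64 controls were left out. The platform's annotation gives 34945 of the rest a single gene, 932 more than 1 gene and 9160 no gene. Symbols of 34741 were updated through a RefSeq gene table and 204 kept. Limma 3.58.1 in R 4.3.3 (lmFit, eBayes, genotype as the only term) was fitted to all 45037 probe sets, with Benjamini-Hochberg adjustment over them and a threshold of 0.05, and was tested on simulated data. The probe set with the highest mean stands for a gene (18193 genes).

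The members and lists were chosen with earlier results of these data known. Named are all members, called genes of the wider lists, 5 further genes of them (Txn2, Txnrd2, Txnrd3, Glrx and Sesn2), Cebpg, Nfe2l2 and, for Txnrd1, Srxn1 and Txnip, the 3 non-members most alike. Glrx2, Glrx5, Mlx, Mlxip, Vim, Col1a2, Col1a1, Lum and Ptprc were named after their values were seen. The comparison of probe sets within a gene was also added then. Each is an exact two-sided permutation test of the per-array difference. Promoter sequences are RefSeq's (GRCm38.p6). The table held 9 of the 10 genes.

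The alternatives tried were subtraction of array medians, quantile normalization, leaving out probe sets not above 2.73 on at least 4 arrays, array weights, a robust fit with an intensity trend, a block for replicate number, the leukocyte or Y-linked mean as a covariate, a threshold of 0.1, averaging the probe sets of each gene and leaving out each array. Leaving out Cebpg-/- replicate 1 and WT replicate 1 together, the highest and lowest in leukocyte markers, and adjustment over genes were added after seeing the data. Of the other marker lists, the epithelial one had 1 of 6 called lower and the endothelial and muscle ones 0 of 6 each (limma). Neural markers gave 1 of 5 higher and 1 lower, red blood cells 0 of 5 and fibroblast markers 5 of 12 lower. Over all genes 7.11% were called higher and 3.24% lower.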

Additional observations from a re-analysis of the deposited data

Results flagged for a closer look

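Within a group of 4 arrays, 1 array lay far from the other 3 in 9 of 140 groups checked. Chance gives about 5%, and this share is near it. Txnrd1 (1421529_a_at) read 10.23 on Cebpg-/- replicate 2, against 10.48 to 10.52 on the others, which still lay above all WT values. Srxn1 (1451680_at) read 5.76 on WT replicate 2, against 6.05 to 6.10. The dim Txn1 probe set (1456734_at) read 4.29 on Cebpg-/- replicate 4, against 4.00 to 4.03, and 3.58 on WT replicate 4, against 4.24 to 4.37. In the wider lists, Txndc16 read 5.07 on Cebpg-/- replicate 3 and Txnl4a 9.30 on Cebpg-/- replicate 1, while on WT arrays Mlxip read 5.77 on replicate 4, Map3k5 2.75 and Msrb3 8.82 on replicate 2. Whether anything but chance set these arrays apart was not tested.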

How the results depend on the processing

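Over all probe sets, 2170 higher and 1254 lower calls became 1203 and 708 with the replicate block, 305 and 195 with the leukocyte covariate, 315 and 212 without both replicates 1, and 929 to 2511 and 531 to 1851 over the fits without 1 array. The calls of Srxn1 (3 probe sets) and of the brightest Txnrd1 probe set held in all 17 alternative fits. The 8 higher member probe sets became 4 with the leukocyte covariate and 4 without both Cebpg-/- replicate 1 and WT replicate 1, and ran from 5 to 10 over the fits without 1 array. The 2 lower ones became 1 with array medians subtracted, 1 with the Y-linked covariate, 0 with the leukocyte covariate and 0 without both replicates 1, and ran from 0 to 2 over the fits without 1 array. Member genes called lower went from 0 to 1, which is Prdx4, with dim probe sets left out, the intensity trend, array weights, a threshold of 0.1 or adjustment over genes, and ran from 0 to 1 over the fits without 1 array. The 5 higher genes of the wider lists became 8 with array medians subtracted, array weights or adjustment over genes, 9 with dim probe sets left out, the intensity trend or a threshold of 0.1, and 1 with the leukocyte covariate or without both replicates 1. They ran from 3 to 8 over the fits without 1 array. The 1 lower gene, P4hb, became 0 with the leukocyte covariate or without both replicates 1, and ran from 0 to 1 over the fits without 1 array. With the replicate number as a block (replicate block), 7 member probe sets were higher and 0 lower, and 4 wider genes were higher and 0 lower. Deviations of same-numbered arrays had correlations of -0.27, 0.13, -0.01 and 0.03, so the numbers are not shown to pair the samples. Some uncalled changes turned sign. The dim Txn1 probe set (-0.042) gave 0.060 with the leukocyte covariate, 0.041 without both replicates 1, and -0.22 to 0.041 over the fits without arrays, with WT replicate 4 left out at the low end and WT replicate 1 or 3 above 0. Txn2 (-0.012) gave 0.023 with array medians subtracted, 0.016 with the mean of its probe sets, and -0.034 to 0.0092 over the fits without arrays. Sesn2, at 0.15 by its brightest probe set, gave -0.13 with the mean of its probe sets, so its probe sets did not all go the same way. The cause of these changes was not tested. Probe sets near the bottom of the scale (Prdx4 1431269_at, Txnrd1 1424487_x_at) have no background call here.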
